A study of Mus musculus with 7 samples.

Results

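The genes described here are 33 transcription factors that pattern the embryonic forebrain, chosen by symbol from a list, and all 33 are among the 27998 genes of the count table. They were followed across 3 libraries of sorted oligodendrocyte lineage cells (OLCs) from the brain of adult mice at postnatal day (P) 90, with 1 library per condition. In control mice, which carried Emx1-Cre and the reporter Sox10-GFP-TdTom, TdTom+ cells whose lineage had expressed Cre under Emx1 control are called control dOLCs (dorsal origin), and GFP+ cells are called control vOLCs (ventral origin). In ablated mice, which carried Sox10-GFP-DTA as well, diphtheria toxin fragment A was expressed to ablate dorsal OLCs, an ablation that was incomplete per the study, and the GFP+ cells are called ectopic vOLCs. The strain background of both genotypes is given as C57BL/6-B6CBA. The labels give the tissue as motor and cingulate cortex, while the study's methods for these cells name neocortex and then dissection of the corpus callosum, so the region is not certain. Per the labels, tissue came from 4 control and 2 ablated mice. Cells of different mice cannot be told apart in the files, so no test between conditions was possible, and condition cannot be told apart from library or mouse. Origin rests on the reporter alone: a dorsal cell in which Cre did not act would be counted as ventral.

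The dorsal telencephalon (pallium) and the ventral telencephalon (subpallium) are set up by opposing transcription factors. Emx1, Emx2, Pax6 and Lhx2 act in pallial progenitors. Gsx1, Gsx2 and the Dlx genes act in the ganglionic eminences, and Nkx2-1 marks the medial ganglionic eminence and preoptic area. Oligodendrocyte precursors (OPCs) arise from both territories in successive waves. NFI factors promote the switch of neural progenitors to glia, and TALE homeodomain factors of the Meis and Pbx families are cofactors of many patterning factors.

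Counts are unique molecular identifiers (UMIs), each standing for a captured RNA molecule. For each cell type of a library they were added up and expressed per 1000000 UMIs (CPM). Cell types follow the authors' clusters: OPCs without cycling cells, and oligodendrocytes (OLs) from MFOLb to MOL5/6d, that is myelin-forming and mature cells. The kept cells numbered 5804 among control dOLCs, 2562 among ectopic vOLCs and 925 among control vOLCs, with 4846391 to 23078181 UMIs per library. OPCs numbered 853 in the control dOLC library, 121 in that of control vOLCs and 330 in that of ectopic vOLCs, and later series of 3 values keep this order. OPCs of the control libraries are called control dOPCs and control vOPCs, and those of ectopic vOLCs ectopic OPCs. Their defining markers Pdgfra, Cspg4 and Ptprz1 together held 4936 to 6721 CPM in OPCs and 29.9 to 66.6 CPM in OLs. Of markers of other cells, the 6 neuron genes summed to 101 to 124 CPM in OPCs and 5.97 to 9.0 CPM in OLs, the 5 astrocyte genes to 602 to 666 and 206 to 248 CPM, and the 5 microglia genes to 78.5 to 106 and 29.5 to 36.3 CPM, with 4 of the microglia genes at 0 in the OPCs of both ventral libraries. Vascular, meningeal and ependymal or choroid genes summed to at most 17.7 CPM per list, and meningeal genes were at 0 in OPCs of both ventral libraries. The same barcode sequence occurred in both of a pair of libraries for 39 sequences among 9291 kept cells. Brackets hold exact 95% intervals, which reflect counting error and leave out variation from mouse to mouse. A count of 0 allows up to 3 counts, and a factor is called detected in a library above that number.

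In adult OLCs the factors ranged from no RNA detected to RNA in most cells. Over the 3 libraries together, 7 of the 33 members had 0 UMIs, 15 had between 1 and 49, and 11 reached 50. This was 21.2% of members at 0 and 33.3% at 50 or more, beside 38.0% and 42.0% of all 27998 genes. Detection passed 3 UMIs for 17 members among control dOLCs, 12 among control vOLCs and 16 among ectopic vOLCs. The control vOLC library was the shallowest, and 3 counts there equal 0.619 CPM, against 0.130 CPM in control dOLCs and 0.210 CPM in ectopic vOLCs.

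The members at 0 were Eomes, Lhx6, Lhx8, Dlx5, Isl1, Otx2 and Zic4. Eomes marks pallial intermediate progenitors, Lhx6 and Lhx8 act downstream of Nkx2-1 in the medial ganglionic eminence, Isl1 marks striatal progenitors, and Otx2 specifies forebrain and midbrain. Neurog2 and Tbr1, which drive the glutamatergic neuronal program of the pallium, had 1 and 13 UMIs in all. The Dlx genes of the subpallium were as sparse, with 6 UMIs for Dlx1, 5 for Dlx2 and 2 for Dlx6. Otx1, which acts in cortical progenitors, had 13 UMIs, Sp8, which acts in the lateral ganglionic eminence, had 1, and Zic1, Zic2 and Zic5 had 9, 4 and 19. Of the 12 subpallial factors 1 reached 50 UMIs, of the 8 pallial factors 3, of the 6 areal and TALE factors 4, of the 4 Zic factors 0 and of the 3 NFI factors 3. Hox genes, which pattern hindbrain and spinal cord and should be missing from forebrain cells, gave 39 UMIs over 39 genes, 23 of them from Hoxd1, and 30 of the 39 were at 0. Of the members below 50 UMIs, Nkx2-1 alone had more UMIs than Hoxd1.

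Emx1, the gene whose regulatory elements drove Cre in the dorsal lineage, was nearly absent from the adult cells. Its UMIs numbered 4 (control dOLCs), 0 (control vOLCs) and 4 (ectopic vOLCs), that is 0.173 CPM [0.0472, 0.444], at most 0.619 CPM at the limit of 3 counts, and 0.280 CPM [0.0762, 0.717]. The intervals of the TdTom+ library and of the GFP+ library of ablated mice overlapped, and a difference between dorsal and ventral cells was not detectable at this depth.

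A few patterning factors were found mainly in OPCs. Gsx1, a homeodomain factor of ventral telencephalic progenitors, had 83 UMIs in OPCs and 11 in OLs of control dOLCs, 15 and 4 in control vOLCs, and 29 and 4 in ectopic vOLCs. In OPCs this was 31.6 CPM [25.2, 39.2], 38.0 CPM [21.3, 62.7] and 24.1 CPM [16.2, 34.6]. All 3 intervals overlapped, so this ventral factor was present in OPCs of the Emx1 lineage too, and no difference between origins was detectable. OPCs exceeded OLs 57.2-fold among control dOLCs, with log2 5.84 [4.92, 6.89], 41.4-fold among control vOLCs and 77.8-fold among ectopic vOLCs, with log2 5.37 [3.72, 7.42] and 6.28 [4.77, 8.25], both from fewer than 50 UMIs. A Gsx1 UMI was seen in 8.91% of 853, 11.6% of 121 and 7.88% of 330 OPCs, against 0.226%, 0.508% and 0.182% of OLs, a share taken as background. Median depth was 2795, 3454 and 3421.5 UMIs in OPCs and 3635, 5313.5 and 5665 in OLs, so the deeper cells had the lower share. With each cell thinned to 1000 UMIs, the share in OPCs was 2.46%, 1.65% and 2.73%.

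Gsx2, its paralog, had 2, 2 and 6 UMIs in the OPCs of control dOLCs, control vOLCs and ectopic vOLCs and 0 in the OLs of all 3 libraries. Control dOPCs lay at 0.762 CPM [0.0923, 2.75] and ectopic OPCs at 4.99 CPM [1.83, 10.9], a log2 ratio of 2.71 [0.23, 6.05] from 6 and 2 UMIs. Control vOPCs were at 5.07 CPM, and the log2 ratio of ectopic OPCs to them was -0.02 [-2.51, 3.32], from 6 and 2 UMIs. Six3, a factor of the rostral forebrain, had 3 UMIs in ectopic OPCs and 0 in the OPCs of both controls, which does not exceed the limit of 3 counts.

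Nkx2-1 was found in ectopic vOLCs and in no cell of the control libraries. Ectopic OPCs held 32 UMIs, and control dOPCs and control vOPCs held 0. This was 26.6 CPM [18.2, 37.6] in ectopic OPCs, while 3 counts equal 1.14 CPM in control dOPCs and 7.60 CPM in control vOPCs. The level in ectopic OPCs was 23.3-fold the limit of control dOPCs and 3.50-fold the limit of control vOPCs. These folds leave out the counting error of the 32 UMIs, whose interval starts at 18.2 CPM. Of all genes at 0 in the OPCs of both controls, 13097 in number, 412 had a UMI in ectopic OPCs and the rest were at 0 there too. Of the 13097, 0.0916% exceeded 3 UMIs in ectopic OPCs, and none had more UMIs than Nkx2-1. In OLs, Nkx2-1 had 0, 0 and 4 UMIs, and in ectopic vOLCs OPCs exceeded OLs 85.8-fold (log2 6.42 [4.93, 8.38], from 32 and 4 UMIs).

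The 32 UMIs came from 27 of 330 ectopic OPCs, with at most 2 in a cell, a share of 8.18% [5.46, 11.7], against 0.182% of ectopic OLs. These 27 cells were taken from the authors' OPC cluster, so OPC markers in them do not show their identity independently. Pdgfra was seen in 26 of the 27 and in 325 of all 330. Ptprz1 was seen in 27 and 328, and Cspg4 in 22 and 274. Their median depth was 4401 UMIs, against 3421.5 over all ectopic OPCs. Snap25, a neuron marker, was seen in 6 of the 27 and in 67 of all 330. Sp9, a subpallial factor outside the 33 members, was seen in 6 of the 27 and in 12 of all 330. After thinning to 1000 UMIs, Nkx2-1 was left in 6 of 330 ectopic OPCs, or 1.82% [0.670, 3.92]. At that depth 0 of 853 control dOPCs allows a share of up to 0.352%, and 0 of 121 control vOPCs allows up to 2.48%, so at equal depth per cell the difference from control vOPCs was not detectable. Without the ectopic OPCs that hold a UMI of a neuron marker, 18 UMIs remained in 233 cells, or 22.1 CPM. Without those that hold a UMI of any marker of other cells, 29 cells with 0 UMIs of Nkx2-1 were left, and 3 counts there equal 35.9 CPM, above the level in all ectopic OPCs. Nkx2-1 lies on the minus strand of chr12:56531958-56536908 (mm10, GENCODE vM21). An annotated antisense gene, Gm26973, overlaps it and had 0 UMIs in OPCs and OLs of all 3 libraries.

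**Figure D1:**
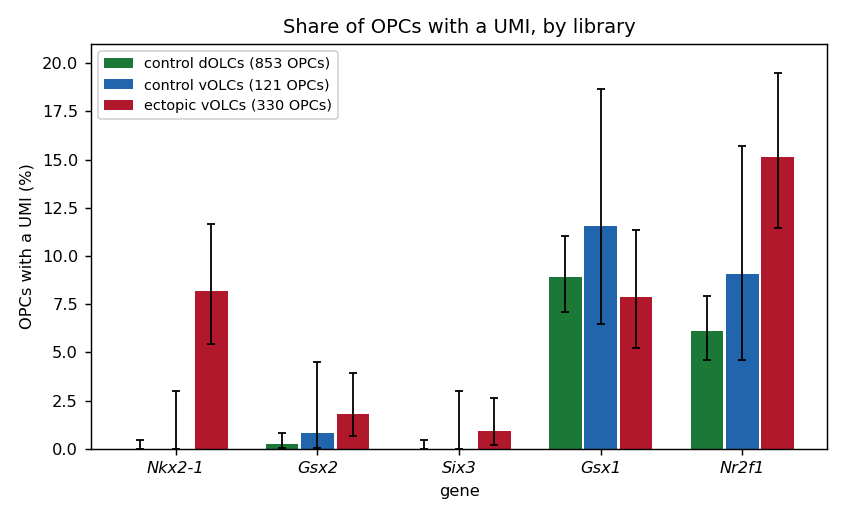
Share of OPCs with at least 1 UMI, in percent, for 5 members and 3 libraries (853, 121 and 330 OPCs). Bars are shares, and error bars are 95% Clopper-Pearson intervals for counting error. Nkx2-1 stands at 8.18% in ectopic vOLCs and at 0 in both controls, while Gsx1 stands between 7.88% and 11.6% in all 3.

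The 250 bases upstream of the RefSeq start of Gsx1, Gsx2 and Nkx2-1 are shown because these are the subpallial members with more than 3 UMIs in the OPCs of any library. They are given 5' to 3' on the strand of the gene, from GRCm38.p6, the build that mm10 is based on. Capitals mark TAAT, the core that many homeodomain factors recognize, or ATTA, the same core on the other strand. The windows are chr5:147188446-147188695 (plus strand), chr5:75075351-75075600 (plus strand) and chr12:56536909-56537158 (minus strand).
Gsx1: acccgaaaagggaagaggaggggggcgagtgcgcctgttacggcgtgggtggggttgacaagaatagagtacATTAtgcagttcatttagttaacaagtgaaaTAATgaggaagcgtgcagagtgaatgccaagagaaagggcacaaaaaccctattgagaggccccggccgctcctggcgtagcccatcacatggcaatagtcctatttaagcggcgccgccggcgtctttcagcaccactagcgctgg
Gsx2: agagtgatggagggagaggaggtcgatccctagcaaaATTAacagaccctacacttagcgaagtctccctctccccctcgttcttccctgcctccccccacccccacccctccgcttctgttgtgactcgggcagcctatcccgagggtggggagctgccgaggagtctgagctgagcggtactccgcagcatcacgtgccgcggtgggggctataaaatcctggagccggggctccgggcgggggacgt
Nkx2-1: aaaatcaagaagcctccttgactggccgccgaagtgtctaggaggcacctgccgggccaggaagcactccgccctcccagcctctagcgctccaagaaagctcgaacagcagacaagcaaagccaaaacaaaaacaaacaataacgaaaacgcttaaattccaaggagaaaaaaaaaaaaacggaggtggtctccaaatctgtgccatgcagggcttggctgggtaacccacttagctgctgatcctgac
The Gsx1 window holds 2 cores, the Gsx2 window 1 and the Nkx2-1 window 0, and their GC content is 54.0%, 63.6% and 50.8%. Over all 32851 windows of this length, 54.9% hold the core. Windows were found for 27 of the 33 members, some with several starts, and 25 of these 40 windows hold it (62.5%). The libraries count RNA and do not measure these windows.

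Of the pallial factors, Pax6 and Emx2 were higher in OPCs than in OLs in all 3 libraries. Pax6, the paired-box factor of dorsal progenitors, had 72, 14 and 26 UMIs in the OPCs of control dOLCs, control vOLCs and ectopic vOLCs. Its level there was 27.4 CPM [21.5, 34.5], 35.5 CPM [19.4, 59.5] and 21.6 CPM [14.1, 31.7], and in OLs 2.56, 1.61 and 1.55 CPM. OPCs exceeded OLs by log2 3.42 [2.88, 3.97], 4.46 [3.06, 6.01] and 3.80 [2.90, 4.72], those of the ventral libraries from fewer than 50 UMIs. The intervals of the 3 libraries overlapped in OPCs, so a difference by origin was not detectable there. The OLs include the MFOLb cluster, where Pax6 was 41.1 CPM over all libraries, against at most 2.29 CPM in the MOL clusters.

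Emx2, the close relative of Emx1, had 16, 6 and 10 UMIs in OPCs, or 6.09 CPM [3.48, 9.90], 15.2 CPM [5.58, 33.1] and 8.32 CPM [3.99, 15.3], with overlapping intervals. OLs held 1.31, 1.38 and 0.931 CPM. Lhx2, a LIM homeodomain factor that selects cortical fate, had 37, 3 and 7 UMIs in OPCs, or 14.1 CPM [9.92, 19.4], 7.60 CPM [1.57, 22.2] and 5.82 CPM [2.34, 12.0]. The intervals overlapped, and the log2 ratio of ectopic OPCs to control dOPCs was -1.28 [-2.69, -0.09], from fewer than the 50 UMIs required for a comparison. OPCs exceeded OLs by log2 1.72 [1.12, 2.29] for Lhx2 in control dOLCs, and the intervals of the ventral libraries included 0, at 0.88 [-1.53, 2.66] and 1.42 [-0.02, 2.65]. In OLs, Lhx2 was 4.27, 4.13 and 2.17 CPM, with a log2 ratio of -0.98 for ectopic vOLCs over control dOLCs, interval [-1.65, -0.35]. With each cell thinned to 1000 UMIs, the sign of this ratio turned, to 0.24. In the MFOLb cluster of the OLs, Lhx2 was 44.8 CPM over all libraries, against at most 4.78 CPM in the MOL clusters.

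Nr2f1 (COUP-TFI), a nuclear receptor with a graded level across cortical areas, was also found mainly in OPCs, and it was higher in ectopic OPCs than in control dOPCs. It had 57 UMIs in control dOPCs, 11 in control vOPCs and 55 in ectopic OPCs, that is 21.7 CPM [16.4, 28.1], 27.9 CPM [13.9, 49.9] and 45.7 CPM [34.5, 59.5]. The interval of ectopic OPCs did not overlap that of control dOPCs and overlapped that of control vOPCs. A UMI was seen in 6.10%, 9.09% and 15.2% of OPCs and in 0.885%, 1.65% and 1.64% of OLs. With cells thinned to 1000 UMIs the OPC shares were 2.11% [1.26, 3.31], 2.48% [0.514, 7.07] and 2.73% [1.25, 5.11]. At equal depth per cell, then, the intervals of all 3 overlapped. OLs held 2.21, 2.98 and 2.79 CPM, and OPCs exceeded them 9.81-fold, 9.34-fold and 16.4-fold, that of control vOLCs from 11 and 13 UMIs. Nr2f2 (COUP-TFII), its relative in the caudal ganglionic eminence, had 2, 6 and 9 UMIs in all cells of control dOLCs, control vOLCs and ectopic vOLCs. Its level was 0.0867 CPM [0.0105, 0.313], 1.24 CPM [0.454, 2.69] and 0.630 CPM [0.288, 1.20]. The interval of control dOLCs overlapped that of ectopic vOLCs and not that of control vOLCs, from 2 and 6 UMIs.

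Meis2, a TALE factor of the striatal primordium, was abundant in OPCs of all 3 libraries, at 131 CPM [117, 145], 134 CPM [101, 176] and 105 CPM [87.3, 125]. OLs held 25.5, 18.8 and 17.6 CPM. Meis1 and Pbx3, further TALE factors, did not follow. Meis1 was 14.1, 20.3 and 25.8 CPM in OPCs and 15.4, 16.8 and 10.9 CPM in OLs. Pbx3 was 14.5, 22.8 and 27.4 CPM in OPCs and 17.6, 22.0 and 18.1 CPM in OLs. OPCs and OLs overlapped for both genes in the control libraries. In ectopic vOLCs, OPCs exceeded OLs by log2 1.24 [0.63, 1.81] for Meis1 and 0.60 [0.03, 1.13] for Pbx3.

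The NFI factors were detected in OPCs and OLs of every library. Nfib was higher in OPCs, at 208, 241 and 200 CPM against 97.6, 81.3 and 59.6 CPM in OLs, a log2 ratio of 1.09 [0.95, 1.23], 1.57 [1.22, 1.90] and 1.74 [1.53, 1.95]. Nfix was the reverse, at 195, 165 and 158 CPM in OPCs and 349, 287 and 262 CPM in OLs, a log2 ratio of -0.84 [-0.97, -0.71], -0.80 [-1.18, -0.44] and -0.73 [-0.95, -0.52]. Nfia was close between both types in the controls, with 189 and 165 CPM in OPCs and 168 and 131 CPM in OLs, and in ectopic vOLCs it was 169 CPM in OPCs and 95.2 CPM in OLs, a log2 ratio of 0.83 [0.60, 1.04]. Without cells holding any UMI of other cells' markers, Nfia was lower in OPCs than in OLs among control dOLCs and ectopic vOLCs. That choice kept 92 and 29 of their OPCs. With all kept cells, Nfib and Nfix lay on opposite sides of equal levels in all 3 libraries.

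The authors' clusters were built from expression in these cells, so OPCs against OLs is a description with no test. Among members reaching 50 UMIs in both types combined, 6 of 10 for control dOLCs, 4 of 7 for ectopic vOLCs and 2 of 6 for control vOLCs were at least 2-fold higher in OPCs. The share over all genes was 29.9% for control dOLCs, 36.0% for ectopic vOLCs and 26.1% for control vOLCs.

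**Figure D2:**
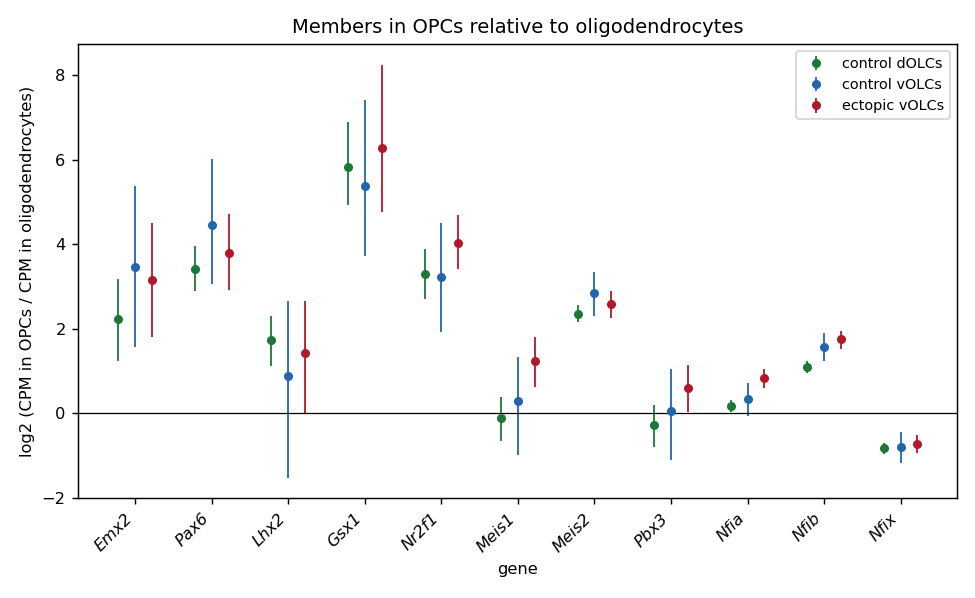
Log2 ratio of CPM in OPCs to CPM in oligodendrocytes for the 11 members with at least 50 UMIs, in each of 3 libraries. Points are ratios, and bars are 95% conditional exact binomial intervals for counting error. The intervals of Gsx1, Pax6, Nr2f1, Meis2, Emx2 and Nfib lie above 0 in all 3 libraries, those of Nfix lie below 0 in all 3, and Lhx2 and Nfia have points above 0 in all 3 with an interval that reaches 0 in at least 1.

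Within the lineage, single clusters stood apart for some members. In the 31 cycling OPCs, Pax6 reached 227 CPM [149, 330] with the libraries summed, against 26.5 CPM in other OPCs. It was 218 CPM [119, 366] in control dOLCs from 14 UMIs, 379 CPM [78.1, 1107] in control vOLCs from 3 UMIs and 212 CPM [102, 390] in ectopic vOLCs from 10 UMIs, with 14 of the 31 cells holding a UMI. Each library lay above its other OPCs. Nfix was 353 CPM [254, 477] in cycling OPCs and 182 CPM in other OPCs. In committed precursors and newly formed cells (COP/NFOL/MFOLa), Pax6 was 1.36 CPM [0.0344, 7.58] from 1 UMI. Lhx2 and Gsx1 were at 0 there, with intervals up to 5.02 CPM. These 3 intervals include the levels of all MOL clusters. Nfib, at 49.0 CPM, and Nfix, at 133 CPM, were at their lowest in this cluster.

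The 157 MFOLb cells held more of a few members than the mature OL clusters did. Pax6 was 41.1 CPM [28.3, 57.7], Lhx2 44.8 CPM [31.4, 62.1], Zic5 12.5 CPM [5.97, 22.9] and Nr2f1 19.9 CPM [11.4, 32.4]. Across the 7 MOL clusters, Pax6 ran from 0.387 to 2.29 CPM and Lhx2 from 0.773 to 4.78 CPM. MFOLb held 10 of the 19 Zic5 UMIs of all libraries, and in control dOLCs 22 of the 51 Pax6 UMIs of OLs. The same cluster held 2571 CPM over the 5 astrocyte markers, led by Slc1a2 at 1155 CPM, against 610 CPM in OPCs, and these factors are also expressed by astrocytes. The part of astrocyte RNA in these values was not tested.

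**Figure D3:**
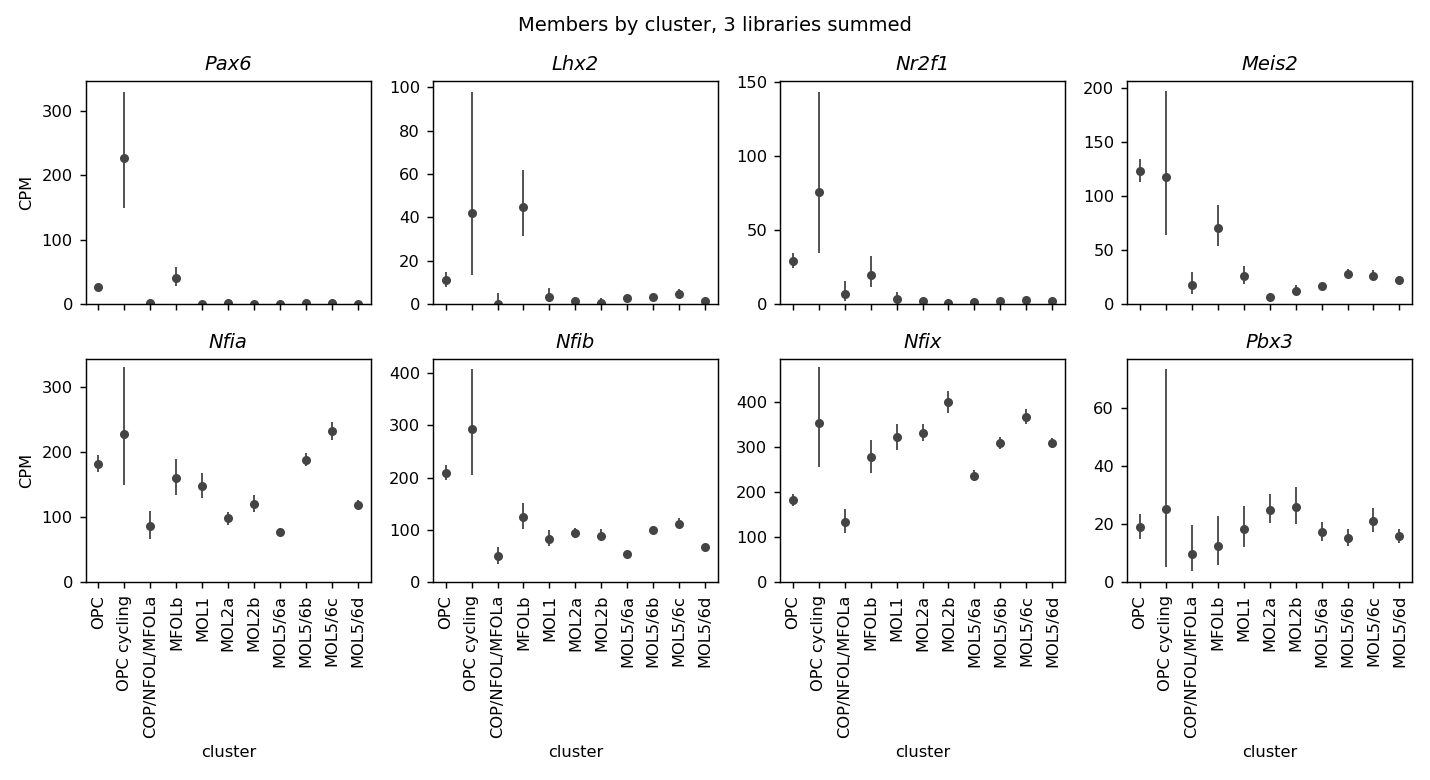
CPM of 8 members in each of the authors' 11 clusters, with the 3 libraries summed. Points are CPM, and bars are 95% Poisson intervals for counting error. Pax6 peaks at 227 CPM in cycling OPCs, Lhx2 stands at 44.8 CPM in MFOLb, and Nfix is higher across the MOL clusters than in OPCs.

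Between control dOLCs and control vOLCs, no member with at least 50 UMIs differed by 2-fold or more. In OPCs, 0 of 7 did, beside 6.19% of all 8064 genes compared, and the median log2 ratio of the 7 was 0.21, against -0.00 over all genes. In OLs, 0 of 9 did, beside 3.24% of 10330 genes, with a median of -0.26 against -0.04. In OLs the NFI factors and Meis2 were lower in control vOLCs, with log2 ratios of -0.36 [-0.49, -0.23] for Nfia, -0.26 [-0.43, -0.10] for Nfib, -0.28 [-0.37, -0.19] for Nfix and -0.44 [-0.80, -0.10] for Meis2. In OPCs the intervals of all 4 included 0. The OLs of these libraries lay in different clusters, with MOL5/6a at 5.74% of control dOLCs and 25.6% of control vOLCs, and MOL2a at 8.58% and 19.4%. Within 6 OL clusters, Nfia was lower in 3, with log2 ratios from -0.74 to 0.25, Nfib in 5 and Nfix in 6. With equal weight to each cluster the ratios were -0.14, -0.26 and -0.12.

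Ectopic vOLCs against control dOLCs gave 1 of 9 members past 2-fold in OPCs, beside 3.14% of 8770 genes. This was Nr2f1, with a log2 ratio of 1.08 [0.51, 1.64]. Pbx3 (0.92 [0.21, 1.63]) and Meis1 (0.87 [0.13, 1.60]) were higher as well, and Meis2 (-0.32 [-0.62, -0.02]) and Nfix (-0.30 [-0.55, -0.06]) were lower. In OLs 0 of 9 passed 2-fold, beside 5.27% of 10629 genes, and 7 of the 9 were lower in ectopic vOLCs, beside 65.8% of all genes compared, with a median of -0.54 against -0.16. Nfia was 168 CPM in control dOLCs and 95.2 CPM in ectopic vOLCs, a log2 ratio of -0.82 [-0.92, -0.73], Nfib -0.71 [-0.83, -0.59] and Nfix -0.41 [-0.47, -0.35]. TMM factors, which allow for a shift of all genes, raise every ratio of this comparison in OLs by 0.19.

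The mix of OL clusters moved with these values. MOL5/6b made up 33.5% of control dOLCs and 1.64% of ectopic vOLCs, and MOL5/6a 5.74% and 35.1%. Nfia was 188 CPM in MOL5/6b and 76.4 CPM in MOL5/6a over all libraries. With equal weight to each of 6 OL clusters, the log2 ratio was -0.33 for Nfia, -0.55 for Nfib and -0.47 for Nfix. Within those 6 clusters, ectopic vOLCs were below control dOLCs in 5 for Nfia, with log2 ratios from -1.27 to 0.07, in 6 for Nfib and in 6 for Nfix. The interval included 0 for Nfib in MOL5/6b, MOL5/6c and MOL5/6d, for Nfia in MOL1, MOL5/6b and MOL5/6c, and for Nfix in MOL5/6b. Some of these ratios are smaller than the shift of 0.19, among them Nfib in MOL5/6c at -0.02 and in MOL5/6d at -0.16 and Nfix in MOL5/6a at -0.18. The part of the cluster mix in the NFI values was not tested beyond these values.

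Against control vOLCs, ectopic vOLCs had 0 of 5 members past 2-fold in OPCs, beside 7.15% of 5724 genes, and 0 of 6 in OLs, beside 4.81% of 9579 genes. Both comparisons of ectopic vOLCs share that library, and those with control dOLCs share theirs, so they are not independent. In OPCs, Nr2f1 had a log2 ratio of 0.72 [-0.23, 1.80], and all 5 intervals included 0. In OLs, the 6 ratios were all below 0, from -0.62 for Meis1 to -0.10 for Meis2, beside 62.1% of all genes compared that were below 0, with a median of -0.37 against -0.12. Nfia was at -0.46 [-0.61, -0.32] and Nfib at -0.45 [-0.63, -0.26]. Nfix, at -0.13 [-0.23, -0.04], changed sign under TMM factors, to 0.04. Meis2 changed sign as well, since these factors raise every ratio of this comparison in OLs by 0.17. Here too the clusters differed, since MOL5/6d made up 32.7% of the ectopic library against 3.78% of control vOLCs, and MOL5/6b 1.64% against 25.5%. Within 6 clusters, Nfia was lower in 4, with log2 ratios from -0.84 to 0.34, Nfib in 5 and Nfix in 5. Equal cluster weights gave -0.19 for Nfia, -0.29 for Nfib and -0.35 for Nfix.

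**Figure D4:**
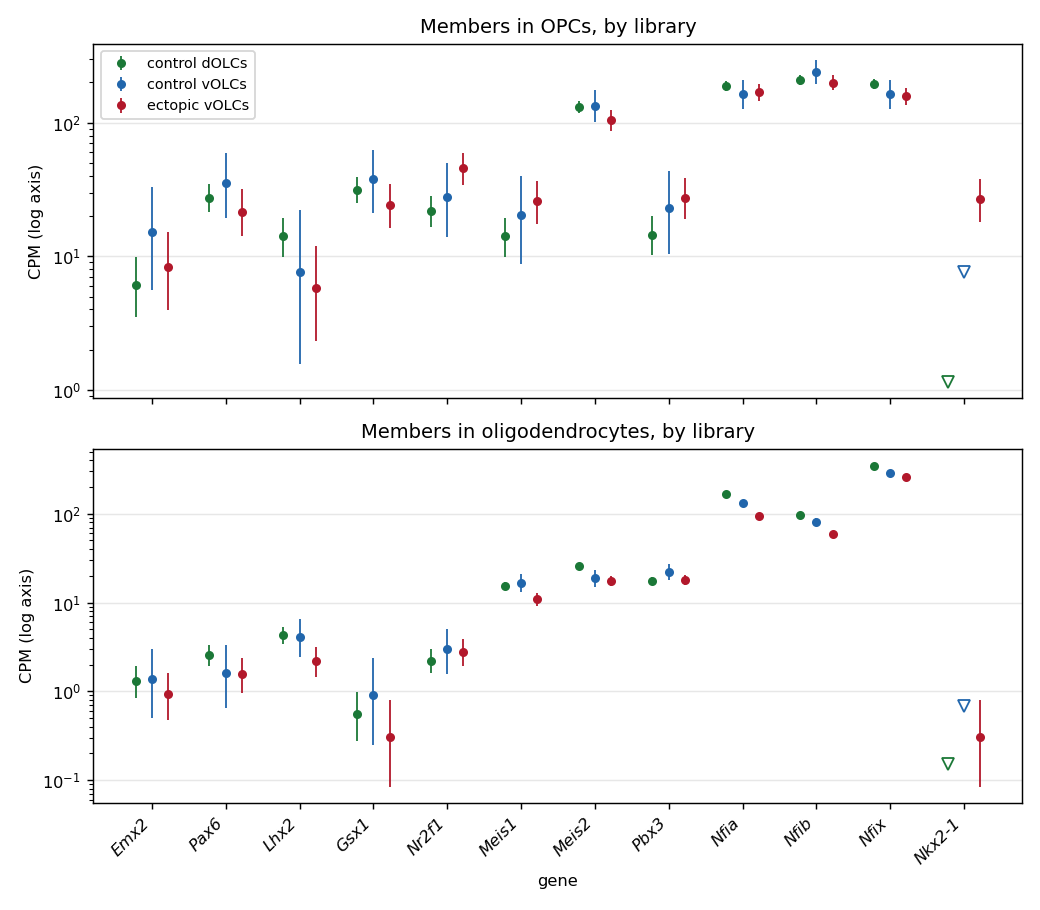
CPM on a log axis of the 11 members with at least 50 UMIs and of Nkx2-1, in OPCs (top) and oligodendrocytes (bottom) of 3 libraries. Points are CPM with 95% Poisson intervals, and open triangles mark the limit of 3 counts for a library with 0 UMIs. Nkx2-1 lies at 26.6 CPM in ectopic OPCs, above the limits of 1.14 and 7.60 CPM of the controls.

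**Figure D5:**
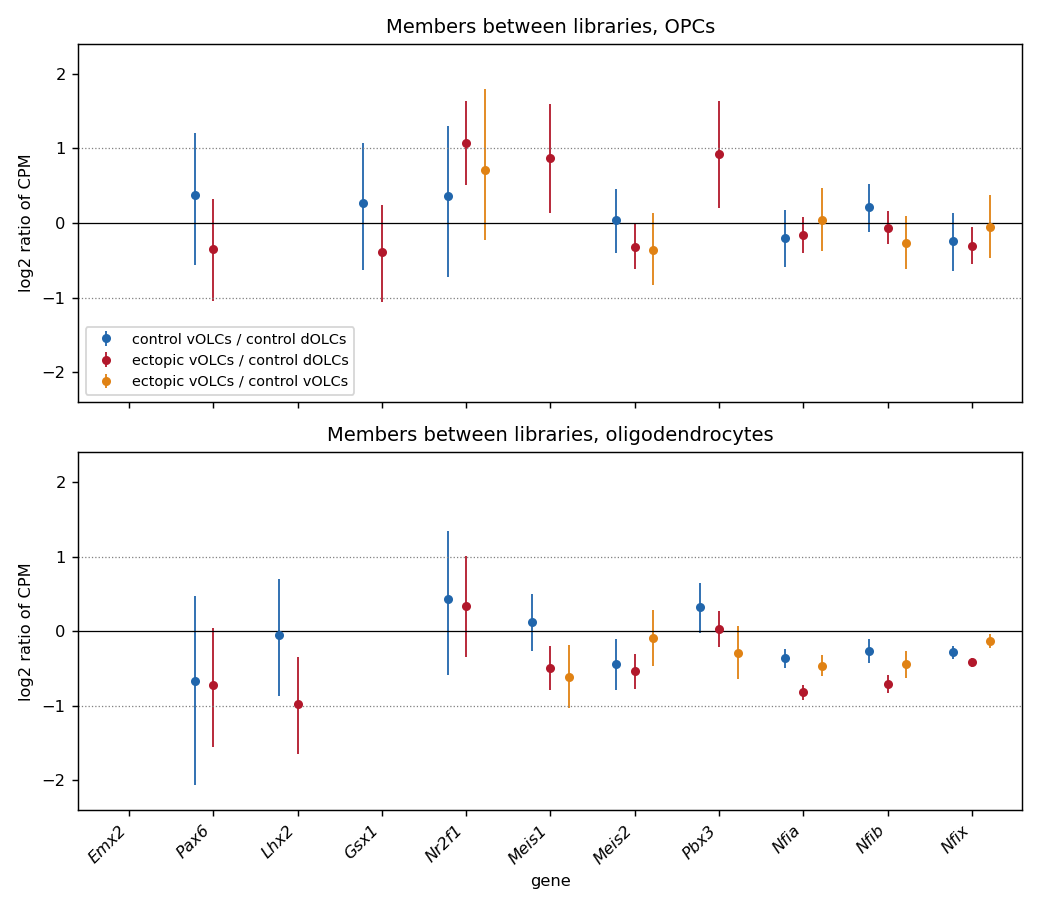
Log2 ratio of CPM between libraries for members reaching 50 UMIs in the compared pair of libraries, in OPCs (top) and oligodendrocytes (bottom). Bars are 95% conditional exact binomial intervals for counting error, and dotted lines mark 2-fold. Nr2f1 in OPCs is the only point past 2-fold, at 1.08 for ectopic vOLCs to control dOLCs, and Emx2 has too few UMIs for a point.

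Other patterning factors were read from a second list of 36 genes. In OPCs, 13 of them had at least 50 UMIs in control vOLCs and control dOLCs together, and 3 of these were at least 2-fold lower in control vOPCs. These were Nkx6-2, a homeodomain factor of oligodendrocyte maturation, at 60.8 against 171 CPM, Prox1, a homeodomain factor of dentate granule neurons, at 15.2 against 36.9 CPM, and Dmrta2, a factor of dorsal telencephalic progenitors, at 2.53 against 19.0 CPM. The same 3 genes were at least 2-fold lower in ectopic OPCs than in control dOPCs, of 14 compared: Nkx6-2 was 67.4 CPM, Prox1 11.6 CPM and Dmrta2 7.49 CPM. Both comparisons share the control dOPCs.

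Dmrta2 thus had 50 UMIs in control dOPCs, 1 in control vOPCs and 9 in ectopic OPCs, and Foxp2, with fewer than 50 UMIs in any comparison, had 36, 0 and 7. Nkx6-2 and Prox1 were both higher in OLs than in OPCs, at 660 and 128 CPM in OLs of control dOLCs, and myelin genes moved with them. Mag, which encodes a myelin glycoprotein, was 806 CPM in control dOPCs, 276 CPM in control vOPCs and 301 CPM in ectopic OPCs, and Mog was 440, 220 and 217 CPM. The part of OL RNA in the OPC values of Nkx6-2 and Prox1 was not tested. Against control vOPCs, 1 of 9 compared genes was past 2-fold in ectopic OPCs: Nkx2-2, which acts in ventral progenitors and in OPC differentiation, at 63.2 against 25.3 CPM (log2 1.32 [0.36, 2.44]). Sp9 had 14 UMIs in ectopic OPCs, 1 in control dOPCs and 0 in control vOPCs.

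In OLs, Sp4, a zinc finger factor, was 6.28 CPM in ectopic vOLCs, 13.8 CPM in control vOLCs and 17.0 CPM in control dOLCs. Its log2 ratio was -1.44 [-1.80, -1.08] for ectopic vOLCs over control dOLCs and -1.13 [-1.63, -0.63] for ectopic vOLCs over control vOLCs.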

How the data were processed

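Droplet-based single-cell RNA sequencing of sorted OLCs at P90 was analysed for 3 libraries. The 4 P0 samples were not analysed here. The authors deposited raw UMI counts, made per the submitters' processing notes with Cell Ranger 2.1.1 on mm10, and an annotation of kept cells by library and cluster, made with Seurat. Whether counting used strand is not given in the sources used here, and 16 members overlap a gene on the other strand that is also in the count table. Kept cells had 691 to 2999 genes, at least 1257 UMIs and at most 14.993% mitochondrial counts. Depth was 4846391 to 23078181 UMIs per library.

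The 33 members, the further factors and the marker lists were chosen with earlier results of these data known. Every member is accounted for, and those with at least 50 UMIs over the libraries are described in full. Further factors are named where at least 2-fold apart, and some results of that list and of the marker lists are not reported here. UMIs were summed per library and type. CPM carries exact Poisson intervals, shares Clopper-Pearson intervals and ratios conditional exact binomial intervals. Counts and medians over members use ratios with 50 or more UMIs in both sides together, and single ratios from fewer UMIs are printed with their counts or interval. With 1 library per condition, no p-value or standard error is given.

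All kept cells were used, with no doublet removal. Scrublet in scanpy 1.11.5 called 1, 16 and 3 barcodes, which was taken as not having worked in the dorsal and ectopic libraries, so the 6% with the highest score served as an alternative. Other alternatives were edgeR 4.0.16 TMM factors, DESeq2 1.42.0 size factors, mean CPM over cells, thinning to 1000 UMIs, equal cluster weights, cells free of other cells' markers, at most 10% mitochondrial counts, and minimums of 1 and 20 UMIs. The ratios and intervals were tested on simulated data. Positions came from GENCODE vM21 and upstream sequences from RefSeq. Python 3.11.15, numpy 2.4.6, scipy 1.17.1 and R 4.3.3 were used.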

Additional observations from a re-analysis of the deposited data

Results flagged for a closer look

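Barcodes that the authors' annotation leaves out, 388 (control dOLCs), 114 (control vOLCs) and 288 (ectopic vOLCs), enter no comparison above, and 3 members had a CPM there in ectopic vOLCs above that of both controls and above the CPM that 3 counts equal in each control. Nkx2-1 had 14 UMIs in 12 of the ectopic barcodes and 0 in those of both controls. All 12 also held Pdgfra, Ptprz1 and Cspg4, and they had 3015 to 3697 genes each, above the 2999 genes of the fullest kept cell. Nr2f1 had 36 UMIs in the ectopic barcodes, 30 in those of control dOLCs and 7 in those of control vOLCs. Pbx3 had 76, 50 and 15. The ectopic barcodes held 3339741 UMIs and the control ones 3682233 and 906478. Six3 had 6 UMIs in 6 of the ectopic barcodes and 0 in both controls, and Gsx2 had 4 and 0, within the limit of 3 counts of the shallowest, as were the few further members with up to 3 UMIs in the ectopic barcodes.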

How the results depend on the processing

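With 1 library per condition, leaving out a replicate was not possible. No paired analysis was possible because no condition has more than 1 library, which leaves a single number for all 3. Of 127 alternative values of the summary results, 101 stayed within counting error or within 1.5 times the count. Leaving out cells with any UMI of other cells' markers kept 29 of 330 ectopic OPCs, 8 of 121 control vOPCs and 92 of 853 control dOPCs. It left 0 CPM of Nkx2-1 in ectopic OPCs, where 3 counts equal 35.9 CPM, moved the OPC median of control vOLCs to control dOLCs to -0.85, and lowered detection to 11 members in control dOLCs and 10 in ectopic vOLCs. Members past 2-fold under it were 4, 5 and 1 in OPCs (control vOLCs to control dOLCs, ectopic vOLCs to control dOLCs, ectopic vOLCs to control vOLCs) and 1 in OLs for each of the first 2 comparisons. Thinning to 1000 UMIs gave 18.2 CPM of Nkx2-1, 11 detected members in control dOLCs, a median of 1.80 for OPCs to OLs in control dOLCs, and 1 and 2 members past 2-fold in OPCs and 1 and 1 in OLs for the same first 2 comparisons. It turned Lhx2 in OLs, ectopic vOLCs to control dOLCs, to 0.24. With no filter beyond 1 UMI, members past 2-fold numbered 7, 9 and 4 in OPCs and 6, 9 and 11 in OLs, and with at least 20 UMIs 1, 3 and 1 in OPCs. TMM and DESeq2 factors turned Nfix in OLs, ectopic vOLCs to control vOLCs, to 0.0379 and 0.0415. They also turned Meis2 there above 0, since its ratio was -0.10 and their shifts are 0.171 and 0.175. Nfia in OPCs to OLs turned to -0.10 in control dOLCs and -0.31 in ectopic vOLCs without cells holding other markers. After the data were seen, adding barcodes outside the annotation to ectopic OPCs gave 10.1 CPM of Nkx2-1, and leaving out cells with a neuron marker, also added then, gave 22.1 CPM. Equal cluster weights could not be applied to OPCs, a single cluster. The cause of these shifts was not tested, apart from the fewer cells or UMIs that the alternative itself keeps. Depth limits the control vOPCs most, where 3 counts equal 7.60 CPM.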

Other observations

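The genes named here were chosen after their values were seen. Of the 13097 genes at 0 in the OPCs of both controls, 412 had a UMI in ectopic OPCs and 5 had at least 10. These 5 were Nkx2-1 with 32 UMIs, En1 with 26, Irx2 with 18, Gm10600 with 15 and Gm10800 with 10. En1, an engrailed homeodomain factor of the midbrain and hindbrain, was seen in 19 ectopic OPCs at 21.6 CPM, and 3 counts in control OPCs equal 1.14 and 7.60 CPM. It also had 11 UMIs in ectopic OLs and 0 in the OLs of both controls. Irx2, an Iroquois factor of posterior neural territories, was seen in 15 ectopic OPCs and had 3 UMIs in ectopic OLs. Its relative Irx1 was in OPCs of all 3 libraries, at 16.0, 40.5 and 25.0 CPM.

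Of the 27 ectopic OPCs with Nkx2-1, 4 had En1 and 3 had Irx2, of 19 and 15 such cells among 330, and with counts this sparse no relation between these genes was read from that. Gbx2, Pax2, Pax5 and Pax8, further factors of the midbrain and hindbrain boundary, had 0 UMIs in OPCs and OLs of all libraries, and En2 had 98, 22 and 37 UMIs in OLs.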
